A study of Homo sapiens with 6 samples.

Results

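The comparison described here sets SH-SY5Y cells that carried a short hairpin RNA against TARDBP beside cells that carried control hairpin 2, over every gene and every family of repeated sequence that was counted. SH-SY5Y is a human neuroblastoma line with features of sympathetic neurons. The comparison took 4 of the 6 libraries of the study, chosen by their hairpin label: 2 with the TARDBP hairpin (TRCN0000016038) and 2 with control hairpin 2 (SHC016). The 2 libraries with control hairpin 1 (SHC007) did not enter the comparison, and their values are given only to show where they lay. All 3 groups had been infected with lentivirus in 8 µg/mL polybrene under 1 h of spinning and selected with 2 µg/mL puromycin for 3 days from 48 h, so the controls also carry a vector and a hairpin. A single hairpin against TARDBP was used. Nothing in the labels tells if replicate libraries were grown as separate cultures, so the p-values cover just the variation among the libraries at hand, and that may be technical.

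TARDBP encodes TDP-43, a nuclear RNA-binding protein that binds UG-rich stretches in introns and 3' ends, blocks the use of hidden (cryptic) exons and keeps its own level steady by acting on its own transcript. Its loss from the nucleus marks most cases of amyotrophic lateral sclerosis (ALS). In dividing cells its loss is known to slow growth. Dividing cells switch on genes for DNA synthesis, histones and the spindle in a fixed order, under E2F factors early and the B-MYB and FOXM1 complexes late, and p53 with its target CDKN1A (p21) holds that programme down.

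Library totals ran from 18605745 to 21698339 counts. Of 27961 genes and 992 repeat families, the test took in 16004 genes and 958 families, and 5406 features were without any count in the 4 libraries. Over all features, none of them an independent replicate, libraries of 1 hairpin correlated with Pearson's r of 0.989 to 0.991 and libraries of different hairpins with r of 0.913 to 0.934. Repeat families took 24.7 to 25.7% of counts with the TARDBP hairpin and 20.6 to 20.9% with control hairpin 2. The mitochondrial ribosomal RNA RNR2 took 8.58 to 8.84% against 4.43 to 4.44%. TARDBP hairpin replicate 1 and control hairpin 2 replicate 2 were each the higher library of their group for the RNA polymerase III transcripts 7SK, RPPH1 and RN7SL3 and for the repeat MER11B. Levels below are CPM, counts scaled to a common library size, in replicate 1 and then replicate 2, and a change is the log2 fold change (log2FC), TARDBP hairpin over control hairpin 2.

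TARDBP stood at 18.7 and 23.7 CPM with its hairpin and at 91.5 and 80.3 CPM with control hairpin 2. The groups were far apart, and the control hairpin 1 libraries, at 81.9 and 72.6 CPM, lay near control hairpin 2. The log2FC of TARDBP was -2.02 with an SE of 0.141 (adjusted p = 8.01e-05), a fall to 24.7% of the control level, and stayed called when any 1 of the 4 libraries was left out. Control hairpins 2 and 1 did not differ in TARDBP by this test (log2FC 0.18, adjusted p = 0.273).

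At an adjusted p below 0.05, 3428 genes were higher with the TARDBP hairpin (21.4% of those tested) and 4381 were lower (27.4%). Among these, 1263 rose and 1717 fell by at least 2-fold, 284 and 526 by at least 4-fold, and 78 and 198 by at least 8-fold. The deepest changes were thus more often falls, while the median over all genes tested was -0.02. The libraries of the groups did not overlap for 35.9% of genes in the higher direction and 40.0% in the lower. These counts of calls rest on both control libraries. Without control hairpin 2 replicate 1 the test called 613 genes higher and 1625 lower, and without replicate 2 it called 213 and 995.

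**Figure D1:**
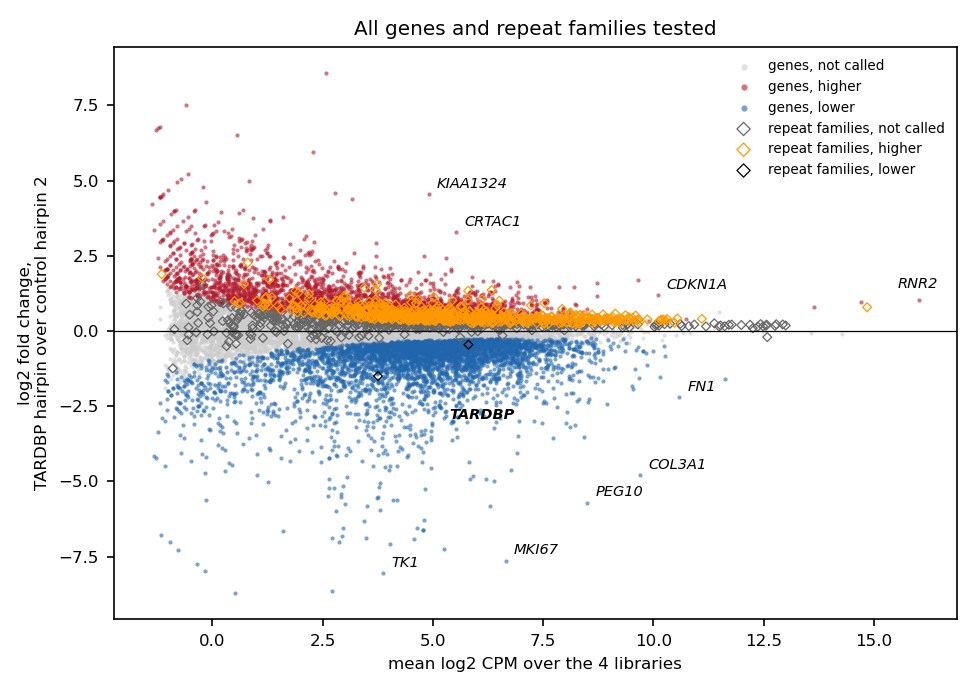
Each point is a gene (dot) or repeat family (diamond) that was tested, with its mean level over the 4 libraries on the x axis (log2 CPM) and its log2 fold change, TARDBP hairpin over control hairpin 2, on the y axis. Genes lie on both sides of 0, with 198 falls and 78 rises of at least 8-fold among called genes, whereas 542 of 958 repeat families lie above 0 as called and 2 below.

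Above a floor of 3 in mean log2 CPM, the largest rise was in KIAA1324, an estrogen-induced membrane protein gene. It stood at 53.7 and 61.2 CPM against 2.54 and 2.32 CPM (log2FC 4.56, SE 0.149, adjusted p = 9.62e-06). FCGBP, which encodes a mucus protein that binds IgG, was at 14.6 and 19.3 against 0.779 and 0.836 CPM (log2FC 4.38, adjusted p = 3.27e-05). CRTAC1, a secreted matrix protein gene, was at 75.4 and 91.8 against 9.14 and 7.89 CPM (log2FC 3.30, adjusted p = 1.68e-05). For all 3, both control hairpin 1 libraries lay far below both knockdown libraries as well. INPP5D, a phosphoinositide phosphatase gene, rose 5.68-fold, from 3.48 and 4.36 to 24.0 and 20.7 CPM, but control hairpin 1 stood at 30.3 and 30.6 CPM, above both groups. Control hairpin 2 was lower than control hairpin 1 for it by the direct test (log2FC -2.92, adjusted p = 2e-05). The iron reductase gene CYBRD1 (log2FC 2.49) and CREBRF, a regulator of the stress factor CREB3 (log2FC 2.44), were likewise higher in control hairpin 1 than in control hairpin 2, by -1.17 and -1.35 read as control hairpin 2 over control hairpin 1 (adjusted p = 0.000361 and 0.000427). The D4Z4-linked noncoding RNA DBET (log2FC 2.14), the sialic acid esterase gene SIAE (2.05), the lipid transporter gene ABCA12 (2.01), the procollagen protease gene ADAMTS2 (1.98) and CARF (1.95) rose about 4-fold, with every call kept when a library was left out. PURPL, CATSPERG, CADM3 and PDE4C rose too (log2FC 2.08, 2.28, 2.06 and 2.18), but lost their calls without control hairpin 2 replicate 1 (adjusted p = 0.0518, 0.0515, 0.0785 and 0.0820) and without replicate 2 (0.0625, 0.0588, 0.0764 and 0.123).

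By difference in CPM the largest rises were in the mitochondrial ribosomal RNAs. Ribo-Zero Gold depletion, used for all libraries, also removes these RNAs, so their levels are what depletion left. RNR2 stood at 89517 and 87365 CPM against 42877 and 44613, and RNR1 at 34673 and 35261 against 16849.5 and 19361 (log2FC 1.02 and 0.95, adjusted p = 0.000781 and 0.00105). With control hairpin 1 they were at 75734 and 51686 and at 30502 and 19929 CPM, uneven between replicates of that hairpin. The part of depletion in this difference was not tested. RPPH1, the RNA of ribonuclease P, was at 20460.00 and 12056 against 7289 and 11283 CPM. The groups did not overlap, but replicate 2 of each lay close to the other. Its call (log2FC 0.81, adjusted p = 0.0476) did not survive leaving out knockdown replicate 1 (adjusted p = 0.192) or either control library (0.387 and 0.152). The actin pair moved apart: ACTG1 was at 1439.96 and 1027 CPM against 329.8 and 429 and ACTB at 1687 and 1426 against 4132 and 5376. ACTB fell by 1.61 (adjusted p = 0.000281), and the rise of ACTG1 by 1.70 lost its call without control replicate 1 or 2 (adjusted p = 0.0619 and 0.0588). Both genes differed between the control hairpins in the reverse direction of one another (control hairpin 2 over control hairpin 1, ACTB 1.50 and ACTG1 -1.18, adjusted p = 0.000519 and 0.00311). The coding sequences of the pair are nearly identical, so the counts of each depend on how shared reads were assigned.

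A few genes were near 0 in one group. ECEL1, a neuronal peptidase gene, had 1 and 0 counts in the knockdown libraries against 132 and 400 counts in control hairpin 2. TNFRSF9, a receptor of the tumour necrosis factor family, had 1 and 1 against 84 and 152 counts. ZNF705A, a zinc finger gene with close copies, had 169 and 290 counts against 0 and 1, and both control hairpin 1 libraries had 0. These 3 genes were picked for having 0 to 3 counts in 1 group, so their lack of overlap largely follows from that choice. ECEL1 and TNFRSF9 stayed called without any 1 library, whereas ZNF705A did not pass without control hairpin 2 replicate 2.

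**Figure D2:**
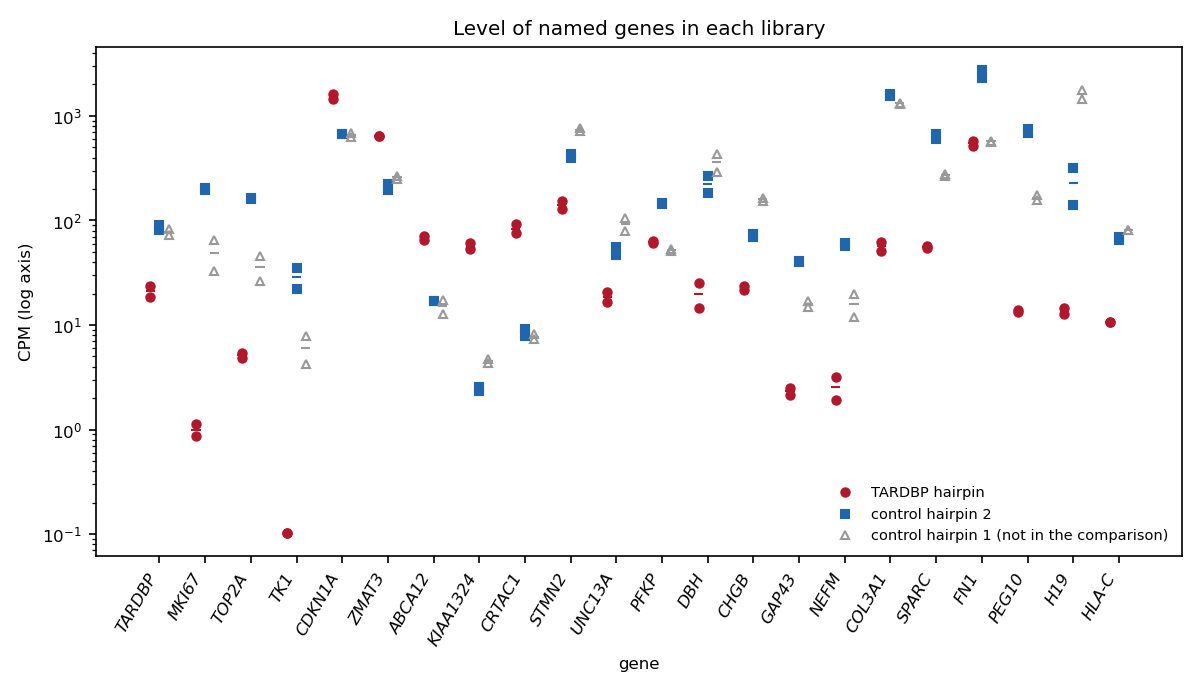
CPM on a log axis for 22 named genes, with 1 point per library: filled circles are the TARDBP hairpin, squares control hairpin 2 and open triangles control hairpin 1, and short lines are means of 2 libraries. Knockdown and control hairpin 2 libraries do not overlap for any gene shown. For genes such as MKI67, TOP2A, TK1, GAP43, NEFM, PEG10 and COL3A1 control hairpin 1 lies between them.

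Genes of cell division had the lowest median change of the gene lists examined. Of 69 spindle, kinetochore and mitotic kinase genes tested, 67 fell and 0 rose, with a median log2FC of -3.44. When control hairpin 2 replicate 1 or 2 was left out, 61 and 59 were still called lower. MKI67, the proliferation marker, stood at 1.13 and 0.871 CPM against 194 and 206 CPM. Its log2FC was -7.64 (SE 0.148, adjusted p = 1.55e-06). TOP2A, the topoisomerase that untangles chromosomes, was at 5.38 and 4.87 against 164 and 160.4 CPM (log2FC -4.98), and ASPM, which organises spindle poles, at 3.43 and 3.90 against 112 and 108 CPM (log2FC -4.91). The knockdown libraries held a few CPM or less of each, and their replicates lay close together. UBE2C, which feeds the anaphase-promoting complex, fell by 7.08, the kinesins KIF20A and KIF2C by 6.88 and 5.94, the survivin gene BIRC5 by 6.28, the kinase gene AURKB by 5.75, the spindle gene DLGAP5 by 6.32 and the kinetochore gene SPC24 by 5.82. In bulk RNA, fewer cells of a kind and less RNA per cell cannot be told apart.

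Control hairpin 1 lay between the groups for both MKI67 and TOP2A. MKI67 was at 32.7 and 65.2 CPM there and TOP2A at 26.2 and 46.1 CPM. Over the list, the 6-library fit gave a median of -1.41 for the TARDBP hairpin over control hairpin 1 (49 lower, 4 higher, against 23.1% and 21.3% of all genes) and of 2.01 for control hairpin 2 over control hairpin 1 (68 higher, 0 lower, against 24.1% and 19.5%). These comparisons share libraries. For MKI67 the difference between the control hairpins was 2.06 (adjusted p = 0.000598).

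The promoters of these genes are known for a pair of elements, the CHR element, TTTGAA, and the CCAAT box, CCAAT. Of the pair, the CHR element is the one read by the late cell-cycle complexes. Of 70 listed mitosis genes, 60 had a promoter in the RefSeq table of build GRCh38.p14 (250 bases before to 50 after the start, both strands searched). TTTGAA on either strand was in 66.7% of them against 15.4% of all 27305 promoters of the same length, CCAAT in 71.7% against 35.7%, and both in 53.3% against 6.1%. Among tested genes with a promoter there, TTTGAA was in 10.7% of those lower, 10.5% of those higher and 9.4% of those not called. CCAAT was in 39.1%, 34.4% and 35.7%, and both were in 5.5%, 3.8% and 3.6%. Below are the 250 bases before the start of the 3 called mitosis genes with the largest falls that hold both. The choice was among genes with a matched promoter, and the genes of 1 chromosome were left out of it. They are shown to let the letters be seen beside the falls of -7.64, -7.03 and -6.32. Capitals mark TTTGAA and CCAAT on either strand. All 3 genes lie on the minus strand, at chr10:128126424-128126673 (MKI67), chr2:112764610-112764859 (CKAP2L, a spindle gene) and chr14:55191586-55191835 (DLGAP5), and the counts themselves were made on another build.
MKI67: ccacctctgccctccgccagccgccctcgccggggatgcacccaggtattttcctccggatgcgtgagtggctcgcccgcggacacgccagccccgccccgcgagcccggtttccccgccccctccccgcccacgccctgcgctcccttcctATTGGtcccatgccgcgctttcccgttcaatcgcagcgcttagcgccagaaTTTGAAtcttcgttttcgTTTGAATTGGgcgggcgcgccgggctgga
CKAP2L: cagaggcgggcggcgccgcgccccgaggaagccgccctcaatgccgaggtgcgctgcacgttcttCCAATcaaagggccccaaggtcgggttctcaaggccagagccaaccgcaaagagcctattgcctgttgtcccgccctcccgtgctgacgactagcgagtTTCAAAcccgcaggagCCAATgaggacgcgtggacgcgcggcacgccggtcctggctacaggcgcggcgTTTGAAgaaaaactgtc
DLGAP5: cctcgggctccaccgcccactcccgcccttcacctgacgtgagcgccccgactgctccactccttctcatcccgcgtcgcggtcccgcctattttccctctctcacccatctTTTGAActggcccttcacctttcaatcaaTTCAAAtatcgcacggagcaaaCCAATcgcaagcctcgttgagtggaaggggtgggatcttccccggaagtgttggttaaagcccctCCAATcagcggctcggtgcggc
In MKI67 the TTTGAA at position -29 overlaps the ATTGG at -24 by 1 base, with positions counted back from the start of the gene. In CKAP2L TTTGAA stood at -17 and in DLGAP5 at -138, with CCAAT boxes at -70 and -185 and at -22 and -87. A match is a description of letters, and no binding was measured.

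Genes for entry into S phase and for DNA synthesis were also lower. Of the early regulators, 18 of 24 tested fell and 1 rose, with a median of -1.28, and without control hairpin 2 replicate 1 or 2 there were 15 and 11 lower calls. The late cell-cycle factor gene MYBL2 (B-MYB) stood at 0.461 and 0.513 against 62.5 and 87.6 CPM and fell by 7.25 (adjusted p = 1.08e-05). E2F2, an activating E2F factor, fell by 5.56, cyclin A2 (CCNA2) by 2.96 and CDK6, a kinase that starts the cycle, by 2.06, from 458 and 442 to 106 and 110.1 CPM. The one rise was RB1, the retinoblastoma protein that restrains E2F, at 106 and 109 against 74.0 and 65.2 CPM (log2FC 0.63, adjusted p = 0.00212, and 0.0634 without control replicate 2). For CDK6 the control hairpins did not differ by the test (log2FC 0.23, adjusted p = 0.140), whereas control hairpin 2 was above control hairpin 1 for MYBL2 by 2.08 (adjusted p = 0.000255).

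Of 47 DNA replication genes, 40 fell and 2 rose (median -1.20; 28 and 21 lower without control replicate 1 or 2). TK1, which makes thymidine monophosphate, had the largest fall above the floor of 3 in mean log2 CPM, from 22.2 and 35.2 CPM to 0.102 and 0.103 CPM (log2FC -8.05, SE 0.430). MCM10 and CDC45, which start the replicative helicase, fell by 5.61 and 5.52, the ribonucleotide reductase gene RRM2 by 4.37 and DTL, an adaptor that clears licensing factors, by 4.02. TYMS and LIG1 were the 2 called higher (log2FC 0.45 and 0.37), and both lost the call without control replicate 1 (adjusted p = 0.169 and 0.132). Letters of an E2F site, TTTGGCGC or TTTCGCGC, were in 26.8% of the 41 matched promoters of this list against 1.2% of all promoters, and TTTGAA was in 2.4%. Among tested genes with a matched promoter, E2F letters were in 2.9% of those lower, 1.2% of those higher and 1.9% of those not called.

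Replication-dependent histone genes, whose messages lack poly(A) tails and peak in S phase, could be measured here since ribosomal RNA was removed with a Ribo-Zero Gold kit. 57 of 66 fell and 1, HIST2H2BC, rose, with a median of -2.54. Their summed level was 1148 and 752 CPM with the TARDBP hairpin and 2724 and 5496 CPM with control hairpin 2. Control replicate 2 thus held much more histone RNA than replicate 1, and knockdown replicate 1 more than replicate 2. Without control hairpin 2 replicate 2 only 17 histone genes were called lower, against 50 without replicate 1. HIST1H3B stood at 3.17 and 2.31 against 102 and 205 CPM (log2FC -5.81) and HIST1H3G at 0.461 and 0.308 against 28.1 and 64.9 CPM (log2FC -6.90). HIST2H3A and HIST2H3C had the same counts in these 4 libraries, so they are 1 measurement. Against control hairpin 1 the list had a median of -0.16, with 9 genes lower, and control hairpin 2 over control hairpin 1 had a median of 2.41, with 62 higher.

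Repair genes were mostly lower. Of 42 genes of homologous recombination and the Fanconi pathway, 26 fell and 4 rose (median -0.80; 21 and 16 lower without control replicate 1 or 2). The recombination gene XRCC2 fell by 3.94, the nuclease gene EXO1 by 3.34 and FANCD2 by 3.20. RAD51B, a recombination gene, rose by 1.55 (adjusted p = 0.000264), from 5.35 and 5.25 to 16.2 and 14.9 CPM. The damage kinase genes ATM and ATR were called higher by 0.56 and 0.39, and both lost the call without control replicate 2 (adjusted p = 0.150 and 0.0929).

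Targets of p53 were mostly higher. Of 39 tested, 26 rose and 3 fell, with a median of 0.84. Without control hairpin 2 replicate 1 or 2, 12 and 9 were called higher. CDKN1A, the p21 inhibitor of cyclin-dependent kinases, stood at 1437 and 1607 CPM against 665 and 665 CPM. Its rise was 1.19 (SE 0.0980, adjusted p = 0.000149). ZMAT3, an RNA-binding tumour suppressor, was at 636 and 639.6 against 222 and 196 CPM (log2FC 1.61), and CCNG1, cyclin G1, at 224 and 209 against 80.8 and 75.3 CPM (log2FC 1.47). SPATA18, which acts in the clearance of damaged mitochondria, rose by 1.59. The 3 that fell were the death gene PMAIP1 (NOXA; log2FC -1.47), TRIAP1 (-0.87, adjusted p = 0.0521 without control replicate 2) and the kinase gene PLK2 (-0.52, adjusted p = 0.102 and 0.0916 without control replicate 1 or 2). The control hairpins did not differ by the test for CDKN1A (log2FC 0.04, adjusted p = 0.770), SPATA18 (0.06, adjusted p = 0.700) and ABCA12, also on this list (0.18, adjusted p = 0.363). Other members did differ. Over the list, control hairpin 2 over control hairpin 1 had 6 higher and 13 lower (median -0.11), against 24.1% and 19.5% of all genes. The list median for the TARDBP hairpin over control hairpin 1 was 0.63, with 21 higher and 5 lower.

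CDK inhibitors and other genes tied to senescence had 3 higher and 10 lower of 17 tested (median -0.56; 5 and 4 lower without control replicate 1 or 2). IGFBP5, which binds insulin-like growth factors, rose by 1.33. LMNB1, the lamina protein lost in senescent cells, fell from 82.1 and 82.5 to 20.2 and 18.0 CPM (log2FC -2.11, adjusted p = 2.54e-05), and the chromatin protein gene HMGB1 fell by 2.11. The chemokine gene CCL2 fell by 2.69. For CCL2 control hairpin 1 was far below control hairpin 2 (control hairpin 2 over control hairpin 1, 3.47, adjusted p = 0.000179). Of all genes, 21.4% were higher and 27.4% lower with the TARDBP hairpin than with control hairpin 2. Over control hairpin 1 the TARDBP hairpin had 7 of the list higher and 5 lower (median 0.39), against 21.3% and 23.1% of all genes. Control hairpin 2 over control hairpin 1 had 8 higher and 3 lower (median 0.63), against 24.1% and 19.5%.

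**Figure D3:**
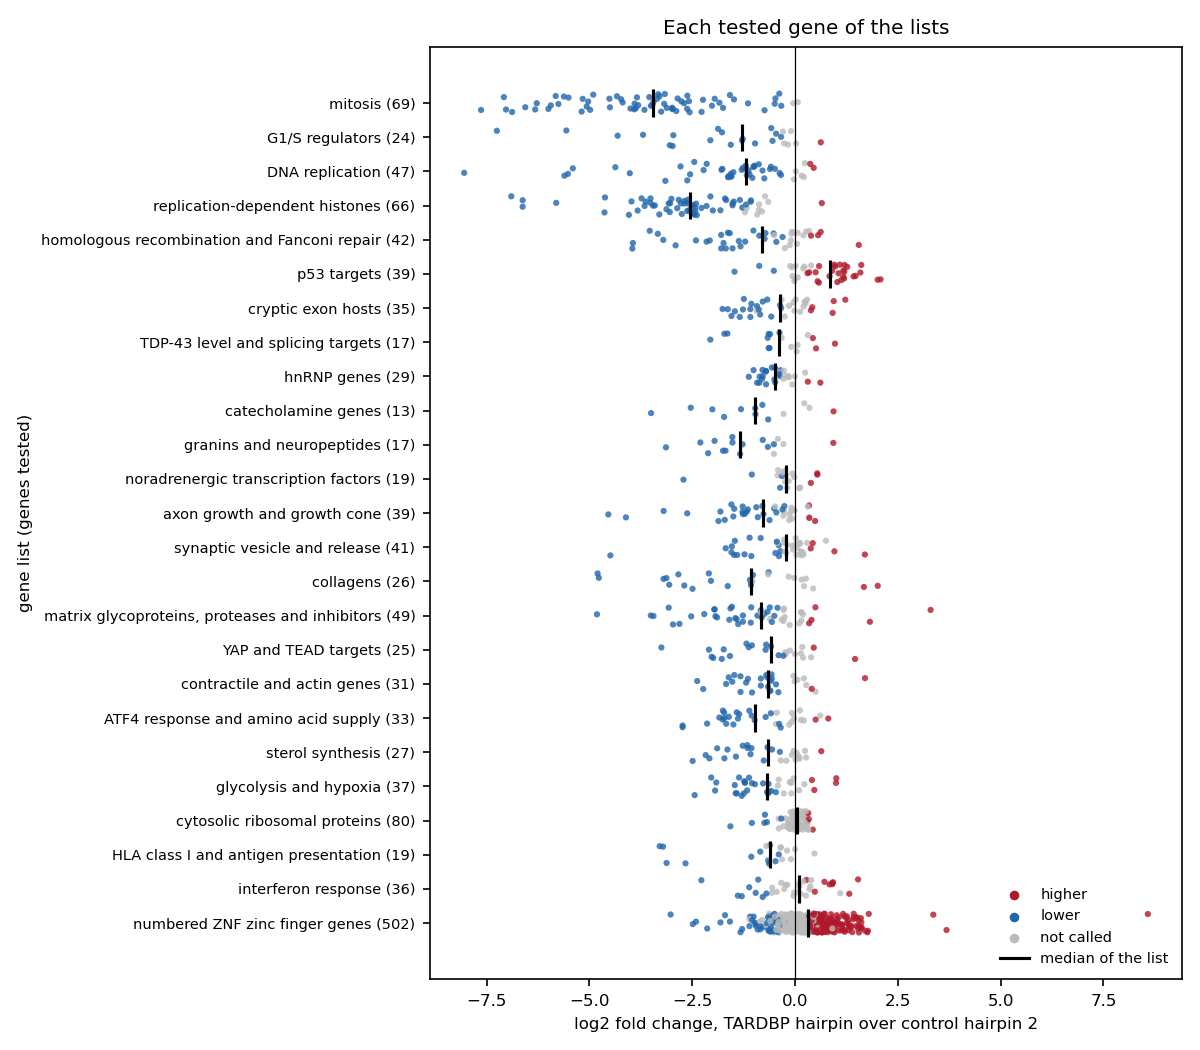
Each point is 1 tested gene of the named list, placed by its log2 fold change, TARDBP hairpin over control hairpin 2 (x axis), red where called higher, blue where called lower and grey where not called; the black bar is the list's median. Mitosis genes reach from 0.07 to -7.64 with a median of -3.44, p53 targets lie mostly above 0 with a median of 0.84, and ribosomal protein genes sit around 0.

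The count files hold 1 value per gene, so the cryptic exons that TDP-43 blocks were not measured. The genes that hold them were. Of 35 tested, 18 fell and 5 rose, a share of falls above the 27.4% of all genes, with a median of -0.36. Without control hairpin 2 replicate 1 or 2, 9 and 9 were lower. STMN2, a growth cone protein whose message is cut short by a cryptic exon when TDP-43 is lost, stood at 153 and 129 CPM against 429 and 395 CPM. It fell by 1.55 (SE 0.111, adjusted p = 8.78e-05). UNC13A, which primes synaptic vesicles, was at 20.5 and 16.6 against 56.1 and 46.2 CPM (log2FC -1.46, adjusted p = 0.000378). In each, both knockdown libraries lay below both control libraries by a wide margin. Control hairpin 1 was above control hairpin 2 for both, by the direct test (control hairpin 2 over control hairpin 1, STMN2 -0.81 and UNC13A -0.81, adjusted p = 0.000637 and 0.00468).

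Others of these host genes that fell were GPSM2, a spindle orientation gene (-1.34), PXDN, a matrix peroxidase gene (-1.27), PFKP, a phosphofructokinase gene (-1.24), the myosin genes MYO1C (-0.92) and MYO18A (-0.85), and the stress granule gene G3BP1 (-0.88). The order against control hairpin 1 was not the same for all of them. PFKP was at 60.3 and 63.0 CPM with the TARDBP hairpin and at 50.8 and 53.9 CPM with control hairpin 1, against 145 and 148 CPM with control hairpin 2, so control hairpin 2 alone stood apart (control hairpin 2 over control hairpin 1, 1.51, adjusted p = 2.34e-05). ELAVL3, a neuronal RNA-binding protein, fell by 1.76 but was not called without control replicate 1 or 2 (adjusted p = 0.0655 and 0.0673). The host genes HDGFL2 (-0.01, adjusted p = 0.931), AGRN (-0.25, adjusted p = 0.0606) and KALRN (0.23, adjusted p = 0.172) did not pass the test. The 5 higher were CEP290, PPFIBP1, EPB41L4A, CYFIP2 and CELF5 (log2FC 1.22, 0.94, 0.91, 0.42 and 0.39), and none of them was called without control replicate 2 (adjusted p = 0.116, 0.113, 0.0586, 0.0715 and 0.181).

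Of 17 other transcripts reported to respond to TDP-43, 9 fell and 3 rose (5 and 3 lower without control replicate 1 or 2). SREBF2, the sterol regulator, fell from 59.2 and 58.8 to 20.0 and 15.8 CPM (log2FC -1.72) and RANBP1, a Ran partner in nuclear transport, by 1.64. FNIP1, a folliculin partner, rose by 0.97. SREBF2 did not differ between the control hairpins by the test (log2FC 0.22, adjusted p = 0.178).

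Among RNA-binding proteins, 18 of 29 hnRNP genes were lower and 2 higher (median -0.48), and 7 and 2 were lower without control replicate 1 or 2. Over control hairpin 1, control hairpin 2 had 18 hnRNP genes higher and 1 lower (median 0.44) and the TARDBP hairpin 5 higher and 6 lower (median -0.15). HNRNPD, which speeds the decay of AU-rich messages, fell by 1.12 and HNRNPK by 0.70. The SR splicing factors had 8 of 16 lower and 1 higher, and 1 and 0 were lower without control replicate 1 or 2. For these, control hairpin 2 over control hairpin 1 gave 9 higher and 0 lower (median 0.47), and the TARDBP hairpin over control hairpin 1 gave 3 and 1 (median 0.01). Over all genes the former comparison had 24.1% higher and 19.5% lower, and the latter 21.3% and 23.1%. Among ALS genes, with 8 higher and 13 lower of 35 (6 and 3 lower without those libraries), the cyclin F gene CCNF fell by 1.71 and the dynactin gene DCTN1 by 0.87. Of all genes, 21.4% were higher and 27.4% lower with the TARDBP hairpin than with control hairpin 2. Control hairpin 2 was below control hairpin 1 for DCTN1 by the direct test (-0.29, adjusted p = 0.0340).

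SH-SY5Y cells keep the noradrenergic programme of the sympathetic lineage. Transcription factors of it were present in all libraries, with HAND2 at 353 and 342 CPM in the knockdown against 421 and 472 CPM in control hairpin 2, and ISL1 at 70.4 and 72.7 against 76.0 and 73.5 CPM. ISL1 did not pass the test (log2FC -0.06, adjusted p = 0.575). Over 19 such factors, 3 rose and 4 fell, shares below the 21.4% and 27.4% of all genes (median -0.22), with 2 and 0 lower without control replicate 1 or 2. PHOX2A fell by 1.05 (adjusted p = 0.00138, 0.0623 without control replicate 2), and INSM2, a zinc finger factor of endocrine cells, by 2.71 (0.0507 without control replicate 2).

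In catecholamine metabolism 9 of 13 genes fell and 1 rose, with a median of -0.96 (6 and 5 lower without control replicate 1 or 2). DBH, which makes noradrenaline from dopamine, stood at 25.2 and 14.5 CPM against 182 and 269 CPM. Its log2FC was -3.50 (SE 0.285, adjusted p = 0.000144), and control hairpin 1, at 292 and 431 CPM, did not differ from control hairpin 2 by the test (adjusted p = 0.0842). The groups were several-fold apart although the replicates of each were uneven. The vesicular monoamine transporter SLC18A1 fell by 2.53, the decarboxylase gene DDC by 2.01, the ascorbate-recycling cytochrome gene CYB561 by 1.72 and the noradrenaline transporter gene SLC6A2 by 1.31, from 185 and 172 to 77.2 and 66.1 CPM. The one rise, SLC18A2, was at 2.87 CPM or less in every knockdown library and lost its call without control replicate 2 (log2FC 0.94, adjusted p = 0.265). TH, which sets the rate of the pathway, had at most 0.147 CPM in any of the 6 libraries and was not tested.

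Dense-core granule genes fell likewise, with 13 of 17 lower and 1 higher (median -1.34; 8 and 8 lower without control replicate 1 or 2). Galanin (GAL), a neuropeptide, was at 5.27 and 3.69 against 30.4 and 48.6 CPM (log2FC -3.14), and VIP, another, at 19.4 and 17.7 against 103 and 80.0 CPM (log2FC -2.30). The granin gene CHGB fell by 1.69, the granule receptor phosphatase gene PTPRN by 1.75 and CADPS, which primes granules for release, by 1.96. VGF, a growth factor-induced granule peptide, was at 719.6 and 456 against 1443 and 1933 CPM, and its call was lost without control replicate 1 or 2 (log2FC -1.52, adjusted p = 0.0643 and 0.0961). For CHGB and PTPRN, control hairpin 1 stood above control hairpin 2 (control hairpin 2 over control hairpin 1, -1.11 and -0.50, adjusted p = 7.94e-05 and 0.00676). For VIP and CADPS it stood below (1.50 and 1.66, adjusted p = 0.000295 and 0.000126).

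Of 39 axon growth genes tested, 25 fell and 3 rose, with a median of -0.77, and 14 and 10 were lower without control replicate 1 or 2. NEFM, a neurofilament, stood at 3.17 and 1.90 CPM against 61.5 and 56.9 CPM (log2FC -4.54, adjusted p = 1.76e-05). GAP43, a growth cone protein, was at 2.51 and 2.15 against 40.7 and 40.1 CPM (log2FC -4.11, adjusted p = 9.72e-06), and its relative BASP1 at 4.40 and 3.95 against 39.7 and 36.9 CPM (log2FC -3.19, adjusted p = 1.5e-05). In all 3 the knockdown libraries were far below both controls. BASP1 did not differ between the control hairpins by the test (log2FC 0.11, adjusted p = 0.467), and neither did DPYSL5, a collapsin response protein gene that fell by 2.62 (control difference -0.29, adjusted p = 0.0814). The 3 called higher, CNTN1, NRCAM and ANK3 (log2FC 0.49, 0.35 and 0.34), are cell adhesion and anchor genes and lost their calls without control replicate 1 (adjusted p = 0.0948, 0.0567 and 0.109).

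Synaptic and guidance genes were mixed, beside 21.4% of all genes called higher and 27.4% called lower. 16 of 41 synaptic vesicle genes fell and 4 rose, but only 3 and 3 were lower without control replicate 1 or 2. The vesicle protein genes SYP and SV2C fell by 1.69 and 1.55, and the dynamin gene DNM3 rose by 1.70. Of 43 guidance genes 18 fell and 5 rose (8 and 7 lower without those libraries). The netrin receptor gene UNC5A fell by 2.49, the semaphorin gene SEMA3A by 1.71, its coreceptor gene PLXNA4 by 1.60 and the ephrin gene EFNB2 by 1.41. SEMA3A stood at 11.5 and 12.4 CPM with control hairpin 1, below the 25.5 and 30.8 CPM of the knockdown libraries. Sodium, calcium and potassium channel genes had 7 higher and 14 lower of 42, near the 21.4% and 27.4% of all genes. Their median was 0.03 (0.04 and -0.10 without control replicate 1 or 2). The potassium channel gene KCNQ3 fell by 1.95 and KCNH1 by 1.16.

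Growth factor receptors had 8 higher and 5 lower of 22, against 21.4% and 27.4% of all genes (4 and 0 higher, 2 and 1 lower without control replicate 1 or 2). The platelet-derived growth factor receptors parted. PDGFRA was at 111 and 140.03 against 42.6 and 45.9 CPM (log2FC 1.50, adjusted p = 0.000174, 0.0543 without control replicate 2), and PDGFRB at 12.8 and 14.2 against 52.2 and 60.8 CPM (log2FC -2.07, adjusted p = 5e-05).

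Imprinted genes, which are read from 1 parental copy and often control growth, had 14 lower and 6 higher of 29 tested (10 and 5 lower without control replicate 1 or 2). Of all genes, 27.4% were lower and 21.4% higher. PEG10, a gene derived from a retrotransposon, stood at 13.4 and 14.0 CPM against 681 and 743 CPM. Its log2FC of -5.70 (SE 0.113, adjusted p = 1.55e-06) had among the lowest p-values of the comparison. H19, a noncoding RNA, was at 14.5 and 12.7 against 139.9 and 314 CPM (log2FC -4.06), and its neighbour IGF2, a growth factor gene, at 0.410 and 0.256 against 7.53 and 17.9 CPM (log2FC -5.23). In H19 and IGF2 the control replicates were uneven and the knockdown libraries were far below either. Control hairpin 1 was higher than control hairpin 2 for both, at 1437 and 1787 CPM of H19 and 92.7 and 110.3 CPM of IGF2 (control hairpin 2 over control hairpin 1, -2.80 and -2.96, adjusted p = 0.000384 and 0.000261), and lower for PEG10 (2.14, adjusted p = 1.64e-05). The Notch ligand gene DLK1 fell by 2.99 and RTL1, which overlaps an antisense RNA, by 3.62. ZDBF2 rose by 1.07 with all calls kept.

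Matrix genes fell widely. Of 26 collagens, 16 fell and 2 rose (median -1.07; 10 and 11 lower without control replicate 1 or 2). COL3A1, the fibrillar collagen of the type III, stood at 51.5 and 62.9 CPM against 1562 and 1628 CPM. It fell by 4.80 (SE 0.134, adjusted p = 5.83e-06), and the control hairpin 1 libraries, at 1338 and 1310.3 CPM, did not differ from control hairpin 2 by the test (log2FC 0.30, adjusted p = 0.0522). COL4A1, a basement membrane collagen, was at 59.0 and 49.2 against 529 and 464 CPM (log2FC -3.20, adjusted p = 1.28e-05), and control hairpin 1, at 47.8 and 61.7 CPM, lay with the knockdown libraries (3.21 between the controls, adjusted p = 1.64e-05). The 2 collagens that rose, COL6A6 and COL11A2 (log2FC 2.01 and 1.67), were not called without control replicate 1 or 2 (adjusted p = 0.0547 and 0.0683 for COL6A6, 0.0943 and 0.176 for COL11A2).

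Other matrix glycoproteins, proteases and their inhibitors had 31 lower and 5 higher of 49 (median -0.82; 22 and 17 lower without control replicate 1 or 2). Elastin (ELN) was at 4.76 and 3.49 against 106 and 126 CPM (log2FC -4.82) and SPARC, which binds collagen, at 57.4 and 54.1 against 668 and 599 CPM (log2FC -3.51). ADAMTS9, a protease that cuts proteoglycans, fell by 3.07, and the collagen cross-linker LOXL2 by 2.53. Fibronectin (FN1) stood at 573 and 518 CPM against 2742 and 2294 CPM (log2FC -2.21) but at 559.6 and 582 CPM with control hairpin 1, the level of the knockdown. The same order was seen for PAPPA, a protease of growth factor binding proteins, at 338 and 303 CPM in the knockdown, 1212 and 1065 CPM in control hairpin 2 and 177 and 248 CPM in control hairpin 1. For both, control hairpin 2 was above control hairpin 1 by the direct test (2.17 and 2.45, adjusted p = 2e-05 and 3.91e-05). The fibroblast marker list had 9 lower and 2 higher of 11 tested, with summed levels of 356 and 408 CPM against 2347 and 2442 CPM, of which COL3A1 made up most in control hairpin 2 but not in the knockdown, and with POSTN at 0 in both knockdown libraries and 1 control library. Their part in the matrix result was not tested.

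Targets of YAP and TEAD, which respond to stiffness and spreading, were lower in 15 and higher in 2 of 25 (10 and 7 lower without control replicate 1 or 2). CTGF, a matricellular factor, stood at 9.42 and 8.10 CPM against a mean of 83.4 ± 16.2 CPM (SD, n = 2; log2FC -3.25, adjusted p = 2.74e-05), and ANKRD1, a nuclear ankyrin repeat protein, at 77.7 and 64.7 against 295 and 271 CPM (log2FC -1.99, adjusted p = 3.89e-05). With control hairpin 1 CTGF was at 0.671 and 1.52 CPM and ANKRD1 at 6.20 and 14.9 CPM, below the knockdown libraries. The direction for these 2 genes therefore turned with the control: the TARDBP hairpin over control hairpin 1 gave 3.01 and 2.77 (adjusted p = 0.000144 and 0.000229). Over the list that comparison had 12 higher and 1 lower (median 0.48), and control hairpin 2 over control hairpin 1 had 18 higher and 3 lower (median 1.39). Contractile and actin genes showed the same turn, with 23 of 31 lower here (median -0.66; 14 and 4 without control replicate 1 or 2) and a median of 0.34 against control hairpin 1. The tropomyosin gene TPM4 fell by 1.33 and the actinin gene ACTN1 by 1.33.

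In the ATF4 response, which raises amino acid transport and synthesis, 21 of 33 genes fell and 2 rose (median -0.98; 14 and 10 lower without control replicate 1 or 2). The amino acid transporter gene SLC7A1 stood at 18.3 and 16.5 against 115 and 116 CPM. SLC7A5, another, was at 20.1 and 16.2 against 104 and 137 CPM, and both fell by 2.73. The serine pathway gene SHMT2 fell by 2.14 and MTHFD2, of mitochondrial folate metabolism, by 1.84. For SHMT2 control hairpin 1 was at 17.6 and 18.9 CPM, near the 15.4 and 14.0 CPM of the knockdown. Over control hairpin 1 the TARDBP hairpin had 7 ATF4 response genes higher and 12 lower (median -0.18), and control hairpin 2 had 20 and 2 (median 0.76). Of 20 tRNA synthetases 13 fell and 0 rose, led by YARS at -1.97, against 27.4% and 21.4% of all genes. Their median was -0.44, and -0.46 and -0.41 without control replicate 1 or 2, where fewer were called. Over control hairpin 1 the TARDBP hairpin had 7 synthetases higher and 6 lower (median 0.14), and control hairpin 2 had 13 and 0 (median 0.50). Of all genes the former comparison had 21.3% higher and 23.1% lower, and the latter 24.1% and 19.5%.

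Glycolysis and hypoxia genes had 24 lower and 4 higher of 37 (median -0.68; 16 and 12 lower without control replicate 1 or 2). The enolase gene ENO1 was at 170.3 and 139 against 691 and 986 CPM (log2FC -2.44), and the glucose transporter gene SLC2A1 fell by 2.04 and the hexokinase gene HK2 by 1.23. EGLN3, an oxygen sensor, rose by 1.00. In sterol synthesis 16 of 27 genes fell and 1 rose (14 and 6 lower without those libraries). The early enzyme gene HMGCS1 fell by 1.89, beside the fall of the regulator SREBF2.

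Chaperones of the endoplasmic reticulum fell in 15 and rose in 4 of 26 (10 and 9 lower without control replicate 1 or 2), with HSPA5 (BiP) at 186 and 199 against 394 and 423 CPM (log2FC -1.09). Cytosolic chaperones had 20 lower and 4 higher of 32 (12 and 7 lower), among them the folding ring genes CCT2 (-1.35) and TCP1 (-1.14). The antioxidant and NRF2 list, which holds the metallothioneins, had 7 higher and 17 lower of 42 (median -0.23; 8 and 4 lower without control replicate 1 or 2), against 21.4% and 27.4% of all genes. The metallothionein MT2A, which binds zinc and copper, was at 1.23 and 0.871 against 19.7 and 27.2 CPM (log2FC -4.48, adjusted p = 3.81e-05) and MT1X fell by 4.21. MT1E had 0 and 0 counts against 49 and 58 and was not called without control replicate 1 or 2 (adjusted p = 0.0513 and 0.0581). Of 37 proteasome genes 18 fell (7 and 4 without control replicate 1 or 2), and 2 of them fell far more than the median of -0.34: PSMC3, at 10.2 and 10.5 against 59.2 and 64.0 CPM (-2.57), and PSMA4, at 14.0 and 15.8 against 63.2 and 67.7 CPM (-2.13). ATP5F1B, the beta subunit of ATP synthase, likewise stood at 62.1 and 59.8 against 283 and 326 CPM (-2.32), beside a median of -0.29 over the 83 respiratory chain genes.

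Ribosomal protein genes were seldom called. Of 80 cytosolic ribosomal protein genes, 4 rose and 6 fell, shares below those of all genes, and the median was 0.05 (3 and 1 lower without control replicate 1 or 2). RPL15 was the exception in size, at 236 and 196 CPM against 602 and 681 CPM (log2FC -1.57, adjusted p = 0.000119), and control hairpin 1 was lower still, at 111 and 139.9 CPM. Nucleolar genes that make ribosomes had 24 lower and 0 higher of 37, against 27.4% and 21.4% of all genes. BOP1 was at -2.12 and nucleolin (NCL) at -0.79. The list median was -0.42, and -0.40 and -0.38 without control replicate 1 or 2, where fewer genes were called. Over control hairpin 1 the TARDBP hairpin had 9 higher and 5 lower (median 0.18), against 21.3% and 23.1% of all genes. Control hairpin 2 over control hairpin 1 had 27 higher and 0 lower (median 0.51), against 24.1% and 19.5%.

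HLA-C encodes a class I molecule, which shows peptides to T cells. It stood at 10.7 and 10.7 against 65.6 and 69.9 CPM. Its log2FC was -2.66 (adjusted p = 1.41e-05), and the control hairpin 1 levels, 80.8 and 80.4 CPM, lay nearer to control hairpin 2 than to the knockdown. Reads of class I genes can match several of them, so the share of each depends on the counting. Over the antigen presentation list 11 of 19 fell and 0 rose (6 and 4 without control replicate 1 or 2). Among interferon-induced genes 9 rose and 8 fell of 36, near the 21.4% and 27.4% of all genes (median 0.09; 1 and 0 higher without those libraries). GBP2, a guanylate-binding protein gene, fell by 2.28, and DDX58 (RIG-I), the sensor of foreign RNA, rose by 0.90 (adjusted p = 0.00146, 0.0598 without control replicate 2).

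Of 502 numbered ZNF genes, most of which encode DNA-binding repressors, 192 were higher and 47 lower, against 21.4% and 27.4% of all genes, with a median of 0.32. This count rested on the control libraries: 30 were higher and 11 lower without control replicate 1, and 5 and 7 without replicate 2. Against control hairpin 1 the list had 74 higher and 70 lower (median 0.05), and control hairpin 2 over control hairpin 1 had 43 higher and 178 lower (median -0.29). ZNF490 rose by 1.62, and ZNF805, at 66.7 and 63.9 against 25.8 and 27.3 CPM, by 1.30, and both were lower in control hairpin 2 than in control hairpin 1 (-1.24 and -1.18, adjusted p = 0.000116 and 7.12e-05). Factors that silence retroelements had 7 higher and 15 lower of 39 (7 and 5 lower without control replicate 1 or 2). UHRF1, which recruits DNA methyltransferase in S phase, fell from 78.1 and 88.3 to 11.5 and 11.7 CPM (-2.84, adjusted p = 1.37e-05), DNMT1, which copies methylation at replication, by 0.82, and the remodeller gene SMARCA4 by 0.99. LIN28B, an RNA-binding protein of embryonic growth, fell by 1.07.

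Repeat families, each the pooled count of all copies of 1 kind of element, were called higher in 542 of 958 (56.6%) and lower in 2 (0.209%), with a median log2FC of 0.39. The libraries did not overlap for 88.2% of families in the higher direction and 1.67% in the lower. In size the changes were small: 32 of the 542 reached 2-fold. Without control hairpin 2 replicate 1 the test called 48 families higher and 1 lower, and without replicate 2 it called 13 and 1. Such counts hold reads from element copies inside the introns and ends of genes as well as from elements read on their own, and the 2 sources were not separated. Scaling factors computed from genes alone gave 624 higher and 2 lower, and relative log expression scaling gave 535 and 2.

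**Figure D4:**
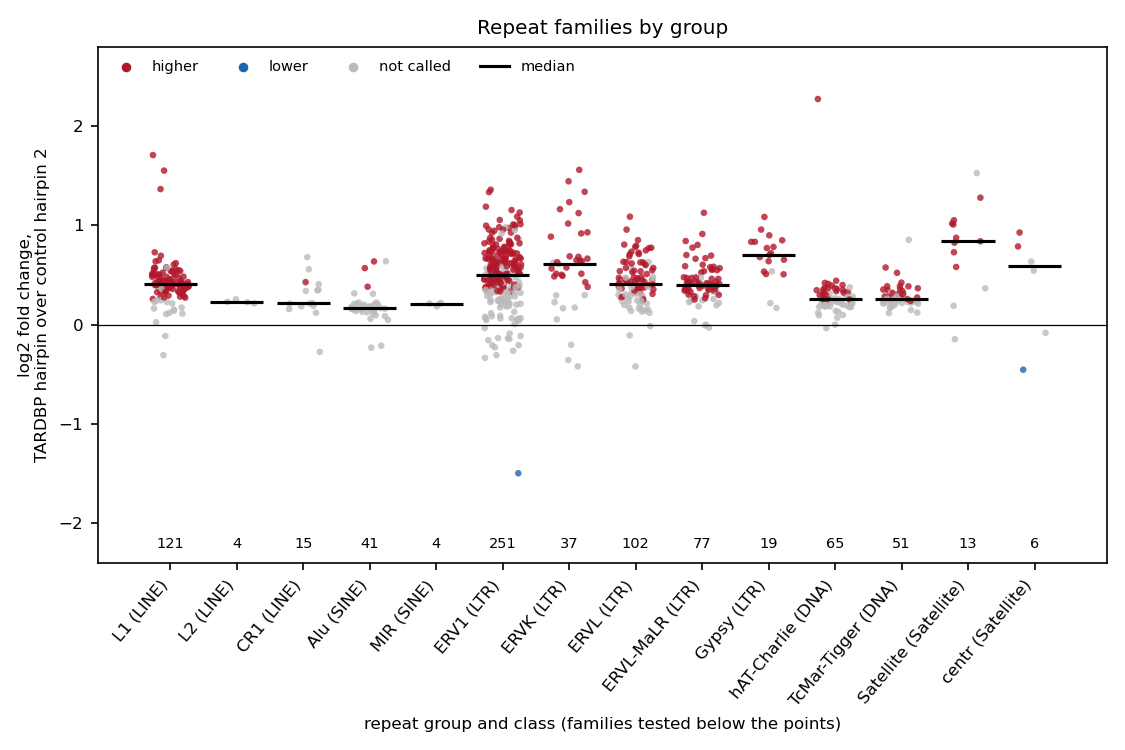
Each point is 1 repeat family, placed by its group and class (x axis) and its log2 fold change, TARDBP hairpin over control hairpin 2 (y axis), red where called higher, blue where called lower and grey where not called; black bars are medians and the numbers give families tested. L1 and the endogenous retrovirus groups lie above 0 with medians from 0.40 (MaLR) to 0.70 (Gypsy), while Alu families lie near 0.17.

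Among LINE elements, which copy themselves through RNA, 102 of 121 L1 families rose and 0 fell (median 0.41), and 20 and 1 were higher without control replicate 1 or 2. Primate-specific L1 families (22 of 26 higher, median 0.40) and older mammalian ones (71 of 77, median 0.42) had nearly the same median. L1P4e, at 19.9 and 19.7 against 6.75 and 6.73 CPM, rose by 1.55 (adjusted p = 0.000162). The summed L1 level was 50821 and 51658 CPM with the TARDBP hairpin, 40859.7 and 37346 CPM with control hairpin 2 and 51312 and 52136 CPM with control hairpin 1. Control hairpin 2 was thus the low group. With the TARDBP hairpin 8 L1 families were higher than with control hairpin 1 (median 0.03, against 16.3% of all families higher and 0.208% lower), and 97 were lower in control hairpin 2 than in control hairpin 1 (median -0.38, against 35.1% of all families lower and 0.832% higher). The short Alu elements, of the SINE class, had 3 of 41 families higher, AluYb9, AluYk11 and AluYh9 (log2FC 0.64, 0.38 and 0.57), and all 3 lost the call without control replicate 1 (adjusted p = 0.0771, 0.0888 and 0.0992). None of the 6 SVA families, the youngest composite elements, was called.

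Long terminal repeat elements, the remains of retroviruses, rose in 324 of 492 families and fell in 1 (median 0.46; 24 and 9 higher without control replicate 1 or 2). By group, 159 of 251 ERV1 families, 26 of 37 ERVK families, 62 of 102 ERVL families, 60 of 77 MaLR families and 16 of 19 Gypsy families were higher. Over all families the share was 56.6%, and those of ERV1 and ERVL lay near it. MER61-int, the internal part of an ERV1 element, stood at 111 and 120.4 CPM against 46.4 and 43.8 CPM. It rose by 1.36 (SE 0.0950, adjusted p = 8.03e-05). HERVK13-int was at 56.0 and 60.5 against 28.8 and 28.7 CPM (log2FC 1.02) and HERVK-int, the internal part of the HERV-K proviruses, at 69.6 and 89.7 against 34.1 and 28.9 CPM (log2FC 1.34, adjusted p = 0.000515, 0.0532 and 0.0678 without control replicate 1 or 2). Control hairpin 1 lay between the groups for MER61-int, at 87.2 and 90.7 CPM, and for HERVK-int, at 51.1 and 47.9 CPM. For the LTR class as a whole, the TARDBP hairpin over control hairpin 1 gave 130 higher and 1 lower (median 0.22). Control hairpin 2 over control hairpin 1 gave 3 higher and 133 lower (median -0.23). Over all families the former comparison had 16.3% higher and 0.208% lower, and the latter 0.832% and 35.1%.

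The 2 falls were PABL_B-int, an ERV1 internal part, at 6.61 and 7.38 against 20.1 and 19.4 CPM (log2FC -1.50, adjusted p = 0.000224), and the satellite SST1, at 49.8 and 44.4 against 59.5 and 69.6 CPM (log2FC -0.45, adjusted p = 0.0163, 0.151 without control replicate 2). In both, control hairpin 1 lay with the knockdown libraries, at 6.20 and 8.40 CPM of PABL_B-int and 48.6 and 41.9 CPM of SST1. Of 22 satellite families, SST1 included, 12 rose, a share near the 56.6% of all families (3 and 3 without control replicate 1 or 2). Centromeric alpha satellite (ALR/Alpha) was at 249 and 233 against 129.9 and 123 CPM (log2FC 0.93) and the satellite CER at 92.9 and 93.7 against 44.8 and 45.2 CPM (log2FC 1.05). CER was at 106 and 101 CPM with control hairpin 1, above the knockdown level. DNA transposons, ancient elements that no longer move, were higher in 90 of 219, a share below the 56.6% of all families (median 0.28; 1 and 0 without those libraries).

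**Figure D5:**
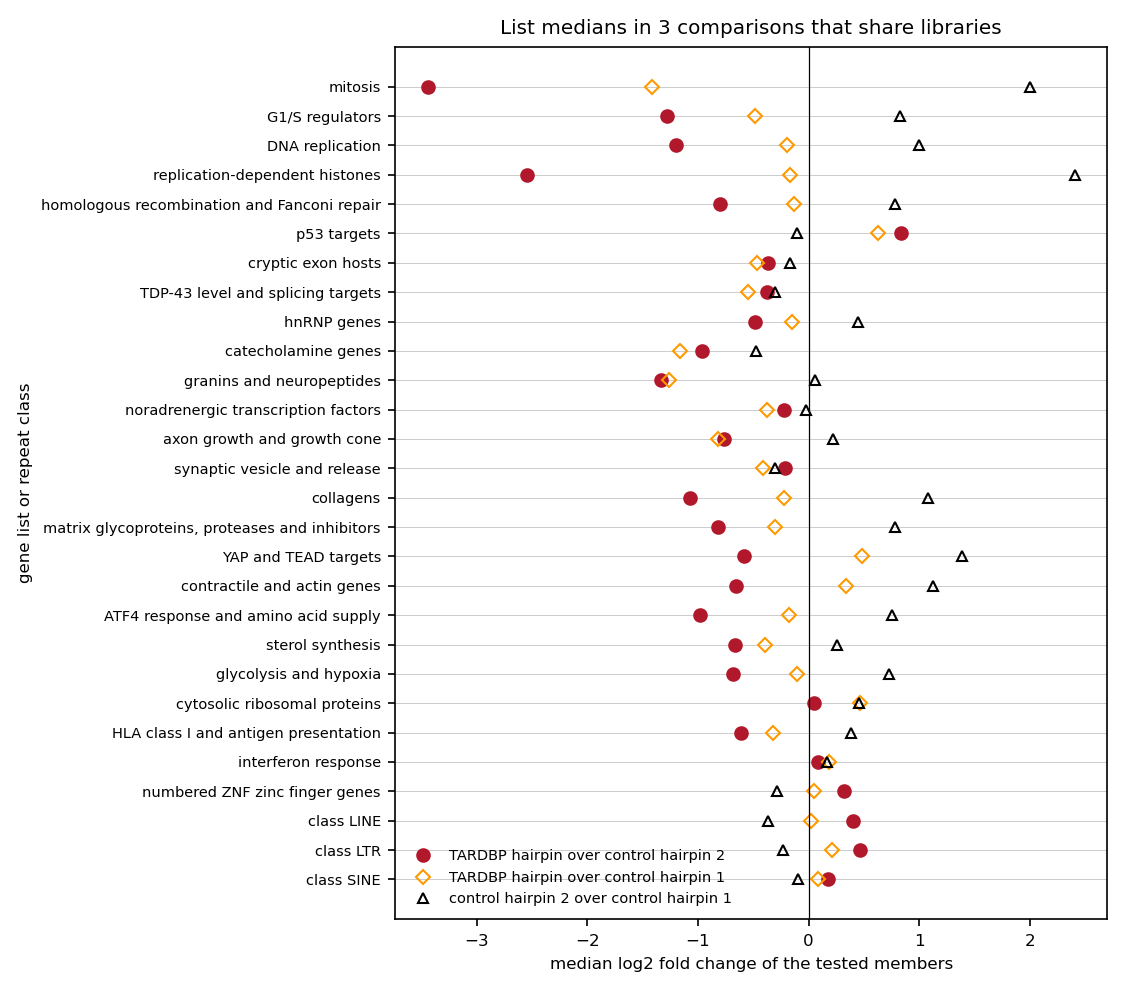
Median log2 fold change of the tested members (x axis) of each list or repeat class (y axis), as a filled circle for the TARDBP hairpin over control hairpin 2, an open diamond for the TARDBP hairpin over control hairpin 1 and an open triangle for control hairpin 2 over control hairpin 1; the 3 comparisons share libraries. For mitosis they are -3.44, -1.41 and 2.01, for p53 targets 0.84, 0.63 and -0.11, and for the LINE class 0.40, 0.02 and -0.37.

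The plot of list medians sets the comparisons side by side. Catecholamine genes had medians of -0.96 against control hairpin 2 and -1.16 against control hairpin 1, granin genes -1.34 and -1.26, and axon growth genes -0.77 and -0.82. Against control hairpin 1 the medians were -0.20 for DNA replication, -0.22 for collagens and -0.10 for glycolysis. Between the control hairpins the gene test called 24.1% of genes higher and 19.5% lower in control hairpin 2.

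Fibroblast markers are given above with the matrix genes. In every library the endothelial genes CDH5, PECAM1 and TIE1 were at 0.186 CPM or below and the leukocyte gene PTPRC at 0.279 CPM or below. SOX10, a glial factor, was at 0.154 and 0.103 CPM against 0.0519 and 0.0928 CPM, and the epithelial keratins KRT5 and KRT14 were at 0. The epithelial list summed to 37.7 and 30.8 CPM against 91.6 and 140.2 CPM, most of it KRT18 in both groups. KRT18 was at 25.3 and 17.0 against 75.3 and 122 CPM (log2FC -2.22, adjusted p = 0.000656, 0.0600 without control replicate 2) and CLDN4 fell by 2.26. The noradrenergic markers of the labelled line had 10 lower and 1 higher of 13 tested, with a summed level of 1371 and 1190.02 CPM against 2238 and 2413 CPM.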

How the data were processed

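The deposited files hold, per library, whole-number counts of reads for each gene and each repeat family. Per the submitters' processing notes, the authors used bcl2fastq, STAR 2.5.2b and hg19. For the counting tool, its annotation, its strand setting and its handling of multiply matched reads, nothing was found (not given in the sources used here), so near-identical, overlapping and antisense genes are uncertain.

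The counts of the 4 libraries were fitted with edgeR 4.0.16 (R 4.3.3) by its quasi-likelihood test, with TMM scaling. Genes and families passed a low-count filter (minimum count 10, minimum total 15), and p-values were adjusted by Benjamini-Hochberg over all 16962. An adjusted p below 0.05 is a call, and every adjusted p here comes from this test. Differences from and between the control hairpin 1 libraries come from the same test on all 6 libraries. With 2 libraries a group, 2 residual degrees of freedom were pooled with a prior of 5.23. The analysis was tested on simulated data from these libraries' means in 3 draws of 16858 to 16910 tested features: 49 to 51 of 100 changes of 1.5-fold and 98 to 100 of 100 changes of 2-fold were recovered, with 4, 15 and 4 false calls among 155, 163 and 152. Each draw held 100 changes of each size, far fewer than the 3970 features called higher and 4383 called lower here. The planted changes were all in features with a mean count above 100. Every feature was drawn with the same spread between libraries, a biological coefficient of variation of 10.5%. Recovery at lower counts, or with a spread that varies by feature, was not tested. Recovery and false calls with that many features differing were not tested, and neither were given by count level. Depth was 18605745 to 21698339 counts a library.

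Named genes are the 15 largest rises and falls at a mean log2 CPM of at least 3 (without uncharacterised and small RNA genes), the 6 largest each way by CPM, genes with 0 to 3 counts in 1 group, and in each list and direction up to 4 called members by p, the 2 largest and all of any count of 5 or fewer. For repeat families the 3 of lowest p in each class and direction, the 8 largest rises and up to 8 falls qualify, and cryptic exon hosts, noradrenergic, catecholamine and marker genes may be named whatever their result. The members and lists were chosen with earlier results of these data known. Alternatives were DESeq2 1.42.0, other scalings, no filter, a replicate block, a test against 1.5-fold and each library left out. Some named genes are not reported here.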

Additional observations from a re-analysis of the deposited data

How the results depend on the processing

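TARDBP was called lower in every alternative run, between -2.20 and -1.86 with a library left out and at -2.02 with the replicate block. Leaving out 1 library gave 213 to 3139 genes and 13 to 372 families higher, and 995 to 4075 genes and 1 to 3 families lower. The lowest values came without control hairpin 2 replicate 2 and then replicate 1. There the lone library of a group is assumed to vary like the other group. A test against 1.5-fold called 1051 genes higher and 1841 lower, and 43 families higher and 1 lower. DESeq2 called 354 families higher. Relative log expression scaling, scaling from genes alone, no low-count filter and the 6-library fit stayed within 1.5 times of the main counts of genes and families called in each direction, though some counts within single gene lists moved further. The labels give both groups replicate numbers 1 and 2, but same-numbered libraries deviated in opposite directions (r = -0.50 over 11233 features with a mean log2 CPM above 3), so the numbers do not pair them. With the replicate block 2746 genes and 365 families were higher and 3755 and 2 lower. With crossed pairing, chosen after seeing the data, the counts were 4444 and 703 higher and 5293 and 4 lower. Of the named called features, none that could be tested changed sign under the other alternatives (this was not counted for the crossed pairing, and SNCB gave no value without control hairpin 2 replicate 2). The number called under both the main test and an alternative ran from 220 without control hairpin 2 replicate 2 to 501 with scaling from genes alone, and 281 and 215 lost their call without control hairpin 2 replicate 2 or 1. Having 2 libraries a group, 1 TARDBP hairpin and unstated culture origin limits what the p-values cover.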

Other observations

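Genes of nuclear transport were mostly lower with the TARDBP hairpin than with control hairpin 2, where 27.4% of all genes were lower and 21.4% higher. Of 48 tested, 28 fell and 3 rose (median -0.35), and 13 and 8 were lower without control hairpin 2 replicate 1 or 2. The importin genes KPNA2, KPNA3 and KPNB1, whose products carry cargo into the nucleus, fell by 1.81, 1.37 and 1.65. KPNB1 stood at 109 and 109 CPM against 347 and 338 CPM, and at 240.4 and 249 CPM with control hairpin 1. Early response genes, switched on by growth signals, fell in 19 and rose in 3 of 31 (7 and 2 lower without those libraries), and the AP-1 gene FOSL2 fell by 1.48. Integrins and laminins had 13 lower and 3 higher of 33 (10 and 6 lower). The integrin gene ITGA5, whose product binds fibronectin, fell by 2.48, ITGA3 by 2.40 and the laminin gene LAMC1 by 1.26. Over control hairpin 1 the TARDBP hairpin had 8 integrin and laminin genes higher and 8 lower (median 0.36). Nuclear transport had 11 and 11 there (median -0.03) and early response genes 9 and 10 (median 0.00), against 21.3% and 23.1% of all genes. Between the control hairpins, control hairpin 2 had 18 higher and 0 lower, 25 and 2, and 17 and 4 for these lists. The medians were 0.71, 0.35 and 0.55, and of all genes 24.1% were higher and 19.5% lower.

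Protocadherins, adhesion molecules of neurons, had 14 higher and 7 lower of 65, against 21.4% and 27.4% of all genes (4 and 1 higher without control hairpin 2 replicate 1 or 2). PCDH20 was at 4.81 and 5.18 CPM against 0.883 and 0.928 CPM and rose by 2.45, while PCDH10 fell by 2.01 and PCDHGC3 by 1.27. The members of the gamma cluster share exons, so their counts depend on the counting. In the WNT pathway the secreted inhibitor gene SFRP1 rose by 1.48 and the ligand gene WNT5B fell by 1.80, among 8 higher and 10 lower of 33, near those shares (2 and 1 higher, 3 and 2 lower). Host genes of small nucleolar RNAs had 4 higher and 9 lower of 25 (median -0.05; 1 and 1 higher, 3 and 2 lower without those libraries). GAS5, a growth arrest transcript, rose by 0.94, from 132 and 125 to 249 and 243 CPM, and SNHG16 fell by 2.53, from 365 and 398 to 72.3 and 60.2 CPM. Lysosome and autophagy genes had 11 higher and 18 lower of 49, against the same 21.4% and 27.4% of all genes (5 and 3 lower), and the lysosomal enzyme gene CTSA fell by 0.99.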
